A study of Homo sapiens with 50 samples.

Results

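H1299 cells, a human non-small cell lung carcinoma line, were irradiated directly with 1 Gy of 4He ions and compared with sham-irradiated cells 4 h later. The directly irradiated samples were those labelled direct bystander negative (DBN), and the sham-irradiated samples were the controls (CTL, 0 Gy). All members were taken by these labels alone, which gave 5 DBN and 5 CTL arrays, 10 of the 50 arrays of the series. The choice was made with earlier results of these data known. The cells were the parental line with its inherent RAD9 level, with no transgene. In the study, cells grown in concentric Mylar dishes were either hit by the ions or shared the medium of hit cells without being hit. The second kind are the bystanders, and a DBN sample is the hit partner of bystanders that did not respond with micronuclei. Other arrays were used for comparison. Those were H1299 cells hit in dishes whose bystanders did form micronuclei (direct bystander positive, DBP, 1 Gy), the bystanders of the DBN dishes (BN), and DBN and CTL arrays of H1299shRAD9. The bystanders of the DBP dishes (bystander positive, BP) entered the fit of all H1299 groups together. The BN, DBP and BP arrays of H1299shRAD9 entered an alternative fit of the cell line difference. H1299shRAD9 are H1299 cells infected with a retroviral vector that expresses a short hairpin RNA against RAD9. More than one stable clone of it was made, and the labels do not say which clone each sample came from. Each group held 5 arrays.

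High-LET particles such as 4He ions deposit their energy along dense tracks and leave clustered DNA breaks. ATM and ATR, the apical kinases of the damage response, then hold cells at checkpoints, among them the one in G2. A set of genes is transcribed in waves through the cell cycle. DNA replication and histone genes peak in S phase, and genes for the mitotic kinases, the spindle, the kinetochore and cytokinesis peak in G2 and M. Transcripts of the second set come mostly from cells that are in G2 or M, so that in a bulk sample fewer such cells and less RNA per cell cannot be told apart.

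RNA of each sample was labelled with Cy3 and hybridised alone to an Agilent array with 34127 probes. Values below are log2 intensities relative to the median of the array, and a difference is DBN minus CTL on that log2 scale. The share of probes flagged as well above background ran from 62.2% to 70% in CTL and from 62.9% to 83.7% in DBN, with DBN replicate 1 at the top. DBN replicate 1 was also the only one of the 10 arrays scanned on its day, and the correlations of the 5 pair differences with each other over the tested features ran from -0.325, for pairs 1 and 5, to 0.408, for pairs 3 and 4. DBN replicate 2 had 201 saturated probes, against 3 to 60 on the other DBN arrays and 11 to 99 on the CTL arrays. The share well above background was 2.66 percentage points higher in DBN (SD of the pairs 9.55, n = 5 pairs), which a two-sided exact sign-flip permutation test over the 5 pairs did not separate from 0 (p = 0.625, in a design of 5 pairs that cannot reach 0.05). The part of these array differences in the results below was not tested, and the list medians that pair 1 moved most are also given without it. The markers of the line, VIM, KRT8 and KRT18, were well above background on all 10 arrays, at 6.81 to 11.65 in CTL. Of the 6 fibroblast markers, LUM, PDGFRB and COL3A1 were well above background on none of the 10 arrays, COL1A2 on 1, COL1A1 on 5 (mean level -2.03 in CTL and -3.14 in DBN, lower in 4 of 5 pairs), and DCN on all 10 at a level of -1.24 in CTL. The 4 leukocyte marker probes were read on at least 9 of the 10 arrays, with CD68 at 4.71, PTPRC at 0.11, CD14 at -0.19 and CD3E at -1.70 in CTL. CD14 was lower in all 5 pairs (-0.48, adjusted p = 1) and CD3E higher in 4 of 5 (0.85, adjusted p = 1). Of the endothelial markers, PECAM1 was read on 1 of the 10 arrays, and CDH5 and VWF were read on all 10.

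Of 12206 features tested, 2 fell in DBN and none rose at p below 0.006 and a Benjamini-Hochberg false discovery rate below 10%, which is 0.0164% of the features. Both features were lower in every pair (5.23% of all features), and no DBN array reached the level of any CTL array (0.869% of all features). PIF1, a helicase of the nucleus and mitochondria that unwinds G-quadruplexes and acts at telomeres, was 4.17-fold lower. The other feature, probe A_33_P3404221, has no gene name on the array and lies on chromosome 1 near the probes of DEPDC1. At an unadjusted p below 0.05, 421 features were reached, of which 354 were lower (2.9% of all features) and 67 higher (0.549%). That balance moved with the processing, to 1.54% lower and 1.45% higher with 75th percentile scaling, 1.9% and 1.65% with the authors' values, and 1.75% and 1.66% with the laxer background filter.

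The sequences of the called features are shown because both rest on 1 probe. The first 30 bases of the 60-base probes, 5′ to 3′ as the array annotation gives them, with hg19 positions from the same source, were as follows. The PIF1 probe lies at chr15:65107916-65107975 on the minus strand. Probe A_33_P3404221 lies at chr1:68944584-68944643, also on the minus strand. The DEPDC1 probe with the highest signal, which is on that strand too, lies 4772 bases from it, start to start, at chr1:68939812-68939846.
PIF1: gcctaaccaaagaacataagctgcaaaatg
A_33_P3404221: atttctgtgttgatcctgtgtttgacaatg
DEPDC1: agatggactatttgctcctttgcctaactt

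On the 5 CTL arrays PIF1 stood at 5.00, 5.26, 4.77, 4.82 and 4.89, and on the 5 DBN arrays at 3.09, 3.56, 2.46, 2.83 and 2.49. The highest DBN array was thus well below the lowest CTL array. The difference was -2.06 (SE 0.23, n = 5 pairs, adjusted p = 0.0137), and by pair it ran from -1.70 to -2.40. PIF1 was the only one of 12 listed telomere and G-quadruplex helicases that varied enough among arrays to be tested. Probe A_33_P3404221 stood at 0.78, 0.68, 0.65, 0.47 and 0.60 in CTL and at -1.04, -1.03, -1.55, -1.12 and -0.74 in DBN. Its difference was -1.73 (SE 0.24, adjusted p = 0.0468). Within the 2 pairs hybridised on one slide, pairs 3 and 4, PIF1 differed by -2.32 and -1.98 and A_33_P3404221 by -2.20 and -1.59. CTL replicate 1 and DBN replicate 2 also shared a slide, where PIF1 differed by -1.44 and A_33_P3404221 by -1.81. DEPDC1, a gene expressed with the mitotic genes, was lower by 1.08 at its brightest probe (SE 0.24, adjusted p = 0.636) and by 1.09 at a second probe 3607 bases from A_33_P3404221, and neither passed the test.

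The call of PIF1 was lost with 75th percentile scaling (adjusted p = 0.30), quantile normalization (0.251), a laxer background filter (0.161), the authors' processed values (0.141), slide as a fixed block (0.396) and without replicate 3 (0.233), at differences of -1.91 to -2.06. A_33_P3404221 lost its call in those settings and in 4 more, at differences of -1.21 to -1.87.

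**Figure D1:**
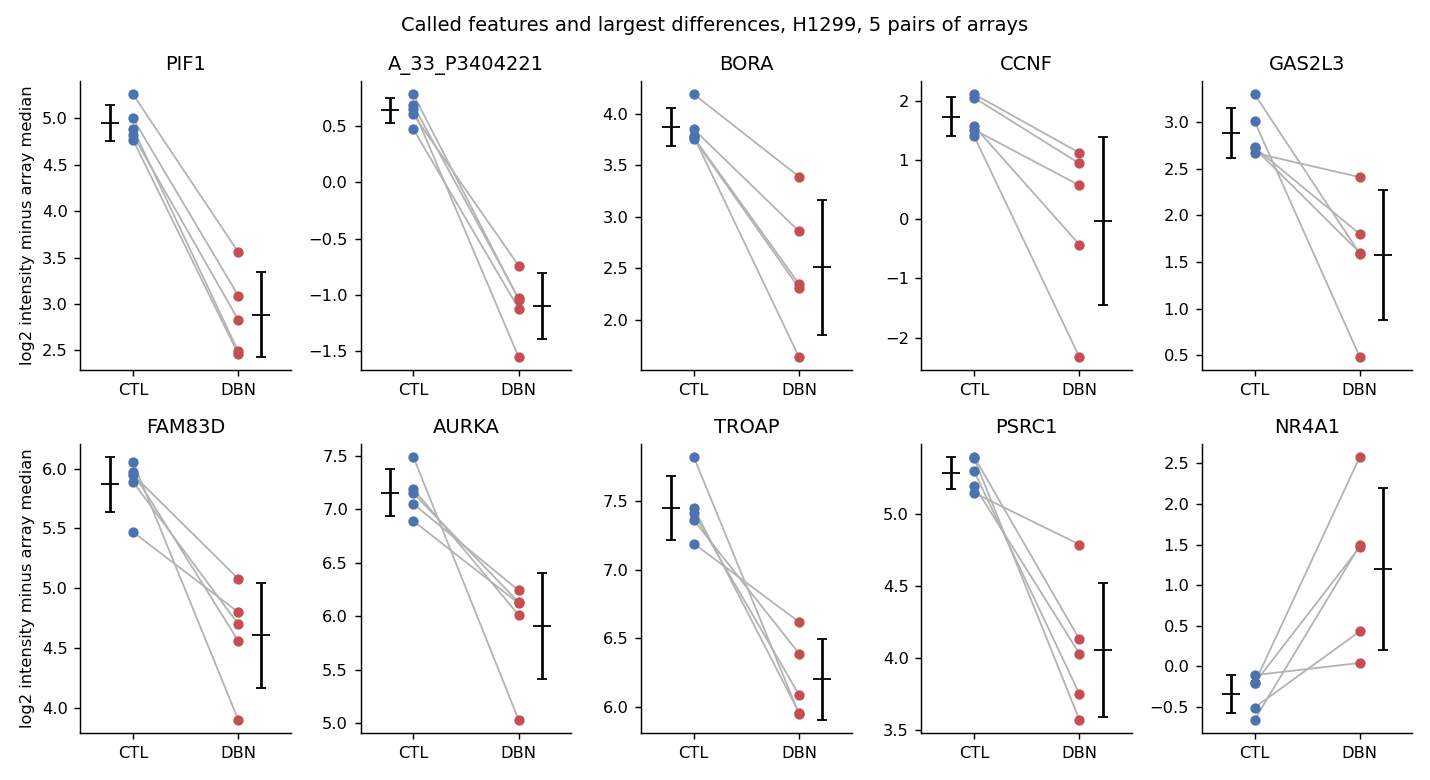
Log2 intensity minus the array median on the 5 CTL and 5 DBN arrays of H1299 for the 2 called features, the 7 other largest falls and the 1 rise taken by the naming rule; grey lines join arrays of one replicate number, and bars give the mean and SD (n = 5). All 10 panels show DBN and CTL arrays that do not overlap, with PIF1 at 2.46 to 3.56 in DBN against 4.77 to 5.26 in CTL. The panels were picked from these same arrays by p and by direction in the pairs, which favours such separation. Of all features, 0.869% had every DBN array below every CTL array and 0.0497% the other way.

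Most genes of mitosis that could be tested had lower values in DBN, though no single one passed the test in the pairwise comparison. Of 89 genes in 5 lists (mitotic kinases, mitotic cyclins and phosphatases, kinesins and spindle proteins, kinetochore and spindle checkpoint, cytokinesis), 88 were above background and 48 were variable enough to be tested. The filter for variation used all arrays of the series, the DBN arrays among them, so a gene that fell in DBN passed more easily. Listed genes that did not pass are not in the values below, which therefore describe the tested genes and not the whole lists. The 12206 features given beside them passed the same filter. All 48 had a negative difference, as did 8165 of the 12206 features. The median of the 48 was -0.82 and the range -1.76 to -0.10, beside a median of -0.10 over all features. At an unadjusted p below 0.05, 35 of the 48 were lower and 0 higher, where 2.9% of all features were lower and 0.549% higher. In 33 of the 48 all 5 pairs were lower (5.23% of all features, with 0.919% higher in all pairs), and in 23 every DBN array lay below every CTL array (0.869% of all features, with 0.0497% the other way). The median level of the 48 genes was 5.00 to 5.19 on the CTL arrays and 3.68, 4.64, 4.19, 4.36 and 4.63 on DBN replicates 1 to 5. DBN replicate 1 was the lowest and replicate 2 the highest. By pair the median difference was -1.68, -0.37, -0.88, -0.66 and -0.43. Without pair 1 it was -0.58, with 45 of 48 genes lower and 30 at p below 0.05, where 4.37% of all features were lower at that p. The G2/M list of the Seurat package gave the same picture, with 31 of 31 tested genes lower, 21 of them at p below 0.05, and a median of -0.74. It shares genes with the 5 lists and was, like them, chosen with earlier results of these data known.

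**Figure D2:**
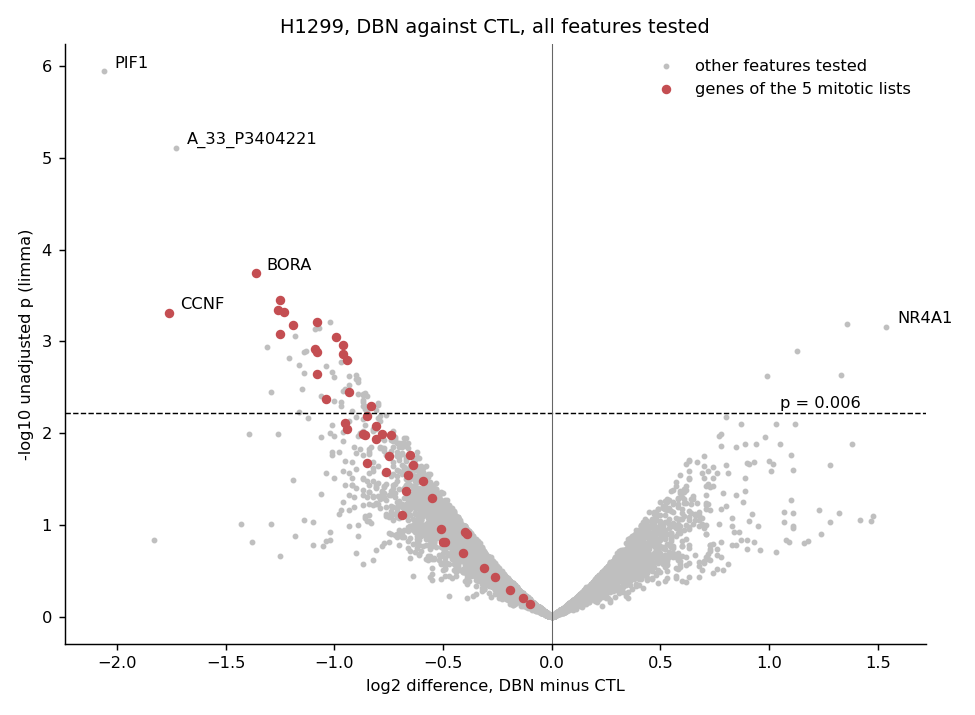
Log2 difference (DBN minus CTL, horizontal) against -log10 of the unadjusted limma p (vertical) for 12206 features, with the 48 tested mitotic genes in red and the threshold of 0.006 as a dashed line. PIF1 (-2.06) and A_33_P3404221 (-1.73) stand above all others, and every red point lies left of 0, as do 8165 of the 12206 features.

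Among the kinases, 9 of 9 tested genes were lower, 6 of them at p below 0.05. BORA, the activator through which Aurora A switches on PLK1 at mitotic entry, stood at 3.78, 4.19, 3.76, 3.77 and 3.85 in CTL and at 1.64, 3.39, 2.31, 2.35 and 2.86 in DBN. No DBN value reached a CTL value, and the difference was -1.36 (SE 0.26, adjusted p = 0.636). AURKA, the Aurora A kinase of centrosomes and spindle poles, ran from 6.89 to 7.49 in CTL and from 5.03 to 6.24 in DBN, a difference of -1.25 (SE 0.28, adjusted p = 0.645). PLK1, the Polo kinase that drives mitotic entry and exit, was lower in 4 of 5 pairs, by 0.86 on average (SE 0.28, adjusted p = 1), and the pair 2 arrays were level at 0.02. WEE1, the kinase that holds CDK1 inactive, differed by -0.93 and NEK2, a centrosome kinase, by -0.78. AURKB, the Aurora kinase of the chromosomal passenger complex, differed by -0.31 and MASTL, the Greatwall kinase, by -0.19, neither with p below 0.05.

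Of the 5 tested cyclins and phosphatases, 4 were lower at p below 0.05. CCNF, the cyclin F subunit of a ubiquitin ligase, stood at 1.57, 1.40, 1.51, 2.11 and 2.05 in CTL and at -0.43, -2.33, 0.57, 1.12 and 0.94 in DBN. The groups did not overlap, but the fall was uneven, with pair 2 at -3.73 and pairs 3 to 5 between -0.94 and -1.12. CCNF was well above background on all 5 CTL arrays and on 4 of the 5 DBN arrays. The mean difference was -1.76 (SE 0.37, adjusted p = 0.636), and it ranged over the alternatives from -1.96 to -1.08. CCNB1, cyclin B1, was lower in all 5 pairs, by 0.75 on average (SE 0.28, adjusted p = 1), with overlapping groups. CCNA2, cyclin A2, differed by -0.76 and CDC25C, the phosphatase that activates CDK1, by -0.64. CDC25A, which acts earlier in the cycle, differed by -0.10.

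All 14 kinesins and spindle proteins tested were lower, 12 at p below 0.05, with a median of -0.86. FAM83D, which recruits casein kinase to the spindle, ran from 5.47 to 6.06 in CTL and from 3.90 to 5.08 in DBN, with a difference of -1.26 (SE 0.27, adjusted p = 0.636). PSRC1, a microtubule-associated protein, differed by -1.23 (SE 0.26, adjusted p = 0.636). The motor KIF20A differed by -1.19, KIF14 by -0.96 and the kinetochore motor CENPE by -1.04. GAS2L3, a linker of actin and microtubules outside the 5 lists, differed by -1.31 (SE 0.31, adjusted p = 0.648), with pair 1 at -0.26 and pair 2 at -2.53.

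Of 12 kinetochore and checkpoint genes, 12 were lower and 7 had p below 0.05, with a median of -0.63. CENPA, the histone H3 variant of centromeres, was tight in CTL at 5.33 to 5.50 and lower on every DBN array at 3.46 to 4.97 (difference -1.08, SE 0.26, adjusted p = 0.648). CDCA8, the borealin subunit of the passenger complex, differed by -1.09 (SE 0.26, adjusted p = 0.648) and its partner INCENP by -0.96. SGO2, a shugoshin that protects cohesin, differed by -1.08. CENPK, of the inner kinetochore, differed by -0.13. The 8 cytokinesis genes were also all lower, 6 of them at p below 0.05, with a median of -0.90 (-0.59 without pair 1). TROAP, which binds microtubules in the spindle, ran from 7.19 to 7.82 in CTL and from 5.95 to 6.62 in DBN, a difference of -1.25 (SE 0.26, adjusted p = 0.636), while a second and dimmer TROAP probe differed by -0.24. GTSE1 differed by -0.99, RACGAP1, a subunit of centralspindlin, by -0.65 and ECT2, the exchange factor of the contractile ring, by -0.49.

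Promoters of these genes are known to carry CHR elements and CCAAT boxes, which are read by the DREAM and MuvB complexes and by NF-Y. The 250 bases before the RefSeq start (GRCh38.p14) were searched on both strands for TTTGAA and for CCAAT, whose matches can share a base at their ends. TTTGAA was in 13.3% of all 35116 promoters, CCAAT in 32% and both in 4.69%. Of the 48 tested mitotic genes 38 had a promoter in the table, and 16 of these held TTTGAA, 26 held CCAAT and 13 held both. Of the called features and the 8 largest falls 5 had a promoter in the table, of which 3 held both motifs, PSRC1 held CCAAT alone and GAS2L3 neither. The promoters of PIF1, BORA and CCNF are shown because each held both motifs, which are in capitals, ATTGG being CCAAT on the other strand. A match is a description of the letters and not evidence of binding. PIF1 is at chr15:64825648-64825897 (minus strand), BORA at chr13:72727673-72727922 and CCNF at chr16:2429197-2429446 (both plus strand).
PIF1: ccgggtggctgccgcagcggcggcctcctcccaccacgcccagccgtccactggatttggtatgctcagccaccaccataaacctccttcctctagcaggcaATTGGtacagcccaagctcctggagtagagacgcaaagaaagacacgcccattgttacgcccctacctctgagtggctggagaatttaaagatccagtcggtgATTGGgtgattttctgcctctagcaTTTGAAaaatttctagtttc
BORA: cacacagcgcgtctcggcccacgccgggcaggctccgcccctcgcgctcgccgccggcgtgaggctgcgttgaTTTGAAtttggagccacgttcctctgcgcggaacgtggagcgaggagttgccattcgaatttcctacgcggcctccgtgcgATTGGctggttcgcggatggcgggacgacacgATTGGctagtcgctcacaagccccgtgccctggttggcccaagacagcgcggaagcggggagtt
CCNF: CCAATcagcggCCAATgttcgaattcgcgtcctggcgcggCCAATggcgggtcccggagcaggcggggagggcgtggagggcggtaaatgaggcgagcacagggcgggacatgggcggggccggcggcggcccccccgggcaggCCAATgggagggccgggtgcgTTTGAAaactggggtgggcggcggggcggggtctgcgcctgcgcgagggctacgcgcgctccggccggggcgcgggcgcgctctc

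Fitting all 5 H1299 groups together, with the spread estimated from 25 arrays in place of 10, changed the count of calls and left the differences as they were. The replicate number was a block for all 25 arrays, though the bystander positive dishes were other dishes. One spread served all groups, while DBN arrays correlated less with their own group (median r 0.9335 to 0.969) than CTL arrays (0.9773 to 0.9854). The part of this in the calls was not tested. In that fit 68 features fell in DBN (0.557% of the features) and 2 rose (0.0164%). Among the 70, 27 features of 24 genes belonged to the 5 mitotic lists or the Seurat G2/M list, 38.6% of the calls beside 0.737% of the features tested. BORA, FAM83D, DEPDC1, KIF20A and PSRC1 followed the 2 features named above, all with an adjusted p of 0.00148, and AURKA, TROAP and CDCA8 fell at an adjusted p of 0.00229, 0.00229 and 0.00238. CCNF and PLK1 passed at 0.0919. Of the 70 features, 65 were lower in all 5 pairs (5.23% of all features), and in 54 the DBN arrays lay wholly below the CTL arrays (0.869%). The 70 were called on these same arrays, so both counts follow in part from the call. Genes outside the lists, picked here after their values were seen, included NDE1, a regulator of dynein at centrosomes and kinetochores (-1.02), MXD3, a MAX dimerization protein (-0.81), CDKN2C, an inhibitor of CDK4 and CDK6 (-0.87), and the RNAs RMRP (-1.16) and RN7SL1 (-1.06). In BN minus CTL they were at -0.14, -0.39, -0.41, -0.74 and -0.26 in that order. The DBN and CTL arrays overlapped for CDKN2C and RMRP. AURKAP1, a pseudogene of AURKA, and FAM72A and FAM72D, near-identical copies, were called as well, and their probes may read the related transcripts. The 2 that rose were FOSB (0.78, adjusted p = 0.0563) and RRAD (0.80, adjusted p = 0.0892). With slide as a random block 34 features were called, of which 27 were among the 70, and with slide as a fixed block 0.

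The S phase and histone lists are given next, and their difference from the mitotic lists was not tested. All 18 tested genes of the S phase list had a negative difference, as did 8165 of the 12206 features. The list median was -0.31, and 1 of the 18 had p below 0.05, where 2.9% of all features were lower at that p. This was RRM2, a subunit of ribonucleotide reductase (-0.73, SE 0.31, adjusted p = 1). UHRF1, which maintains DNA methylation, came next at -0.43 (SE 0.27, adjusted p = 1). The list median was -1.23 in pair 1 and between -0.36 and 0.24 in the other pairs, and without pair 1 it was 0.05. Over all features the median was -0.57 in pair 1 and -0.23 to 0.20 in the other 4. The replication-dependent histone genes, whose transcripts rise in S phase, had a median of -0.70 over 18 genes, 7 of them at p below 0.05. That value was carried by pair 2 at -2.24 and pair 5 at -0.82, while pairs 3 and 4 stood at 0.12 and -0.04. Without replicate 2 it was -0.32. DBN replicate 2 also had the lowest 5′ to 3′ index, a log2 measure of signal near the 5′ end of genes against the 3′ end (-1.99, against -1.62 to -1.52 on the other DBN arrays), and the 201 saturated probes given above, whose part in the histone values was not tested. H2AC20 differed by -0.89 (SE 0.30, adjusted p = 1) and H1-5, a linker histone, by -1.04 (SE 0.41, adjusted p = 1), the latter at -0.44 without replicate 2.

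**Figure D3:**
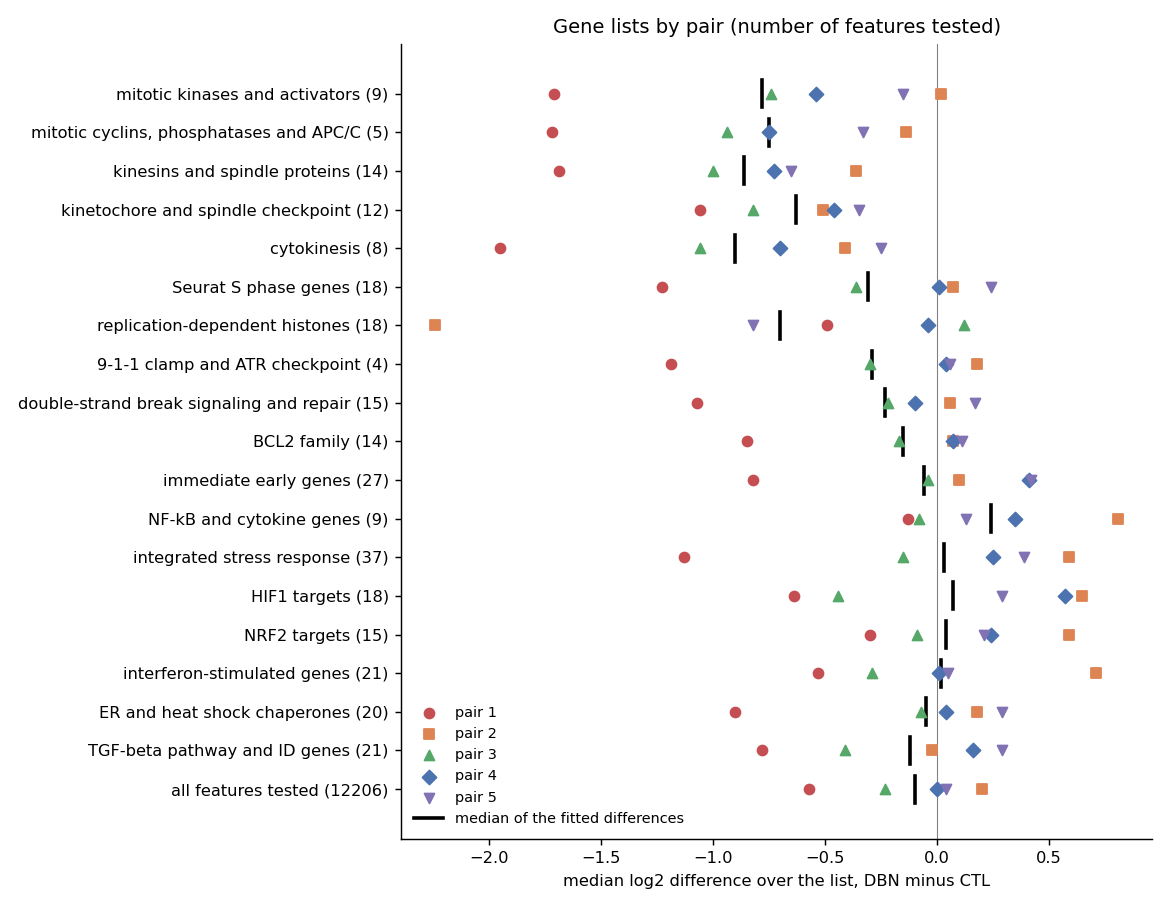
Median log2 difference (DBN minus CTL) of each gene list in each of the 5 pairs, with the median of the fitted differences as a black bar and the number of features tested in brackets. The 5 mitotic lists lie left of all features in every pair, with pair 1 at -1.06 to -1.95, and the histone list spreads from -2.24 in pair 2 to 0.12 in pair 3.

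None of the damage checkpoint, repair and cell death genes tested passed the test. RAD9A, the clamp subunit that the shRNA targets in the other line, was at 3.82 to 4.18 in CTL and 2.90 to 4.48 in DBN, with a difference of -0.26 (SE 0.27), and did not vary enough to enter the test. Of 17 genes of the 9-1-1 clamp and the ATR checkpoint 4 were tested and none had p below 0.05, at a list median of -0.29 (-0.08 without pair 1), with HUS1B, a HUS1 paralogue, at -0.45 (SE 0.28) and CLSPN, the claspin adaptor of CHK1, at -0.38 (SE 0.25). Of 15 tested double-strand break genes 14 were lower, as were 8165 of the 12206 features. The list median was -0.23, at -1.07 in pair 1 and -0.22 to 0.17 in the other pairs, and without pair 1 it was -0.01. In this list 1 gene had p below 0.05, where 2.9% of all features were lower at that p. This was H2AX, the histone variant phosphorylated at breaks, which was lower in all 5 pairs (-0.72, SE 0.24, adjusted p = 1). BRCA2, a homologous recombination protein, differed by -0.56 (SE 0.26, adjusted p = 1). CDKN1A, the CDK inhibitor p21, was higher in all 5 pairs, by 0.50 on average (SE 0.24, adjusted p = 1), at levels of -1.19 to -0.46 in CTL and -1.06 to 0.57 in DBN. MDM2, a ubiquitin ligase, differed by -0.34 (SE 0.30) at its brightest probe, by -0.37 at a second, which was lower in all 5 pairs, and by 0.34 at another. GDF15, a secreted stress cytokine, differed by 0.44 (SE 0.26). Of 14 BCL2 family genes, BMF, a BH3-only protein, was the 1 with p below 0.05 (0.74, SE 0.30, adjusted p = 1), and BAK1, a pore-forming member, differed by -0.27 (SE 0.25).

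The largest positive difference was that of an immediate early gene, a class switched on within minutes of a stimulus. NR4A1, an orphan nuclear receptor, was at -0.66 to -0.11 in CTL and at 2.58, 1.47, 0.04, 0.43 and 1.49 in DBN. No DBN array fell to a CTL level, but the spread in DBN was wide, and the difference of 1.54 (SE 0.34) had an adjusted p of 0.636. It was the 1 gene that met the naming rule for rises, against 46 for falls. FOSB, an AP-1 subunit, was higher on every DBN array (-0.46 to 0.59) than on any CTL array (-1.07 to -0.61), by 0.78 (SE 0.26, adjusted p = 1). Of all features, 0.0497% had every DBN array above every CTL array. The related receptors NR4A2 and NR4A3 both differed by 0.63, and EGR1, a zinc finger factor, by 0.48 (SE 0.31) with 3 of 5 pairs higher. Over the 27 tested immediate early genes 4 had p below 0.05 and were higher, and 0 were lower at that p. Of all features, 0.549% were higher and 2.9% lower at that p. The median of the 27 was -0.06.

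Smaller differences in the same direction were seen for single NF-kB, oxidative and hypoxia genes, none of which passed the test. Of 9 NF-kB and cytokine genes 8 were higher, as were 4041 of the 12206 features. The list median was 0.24 (0.38 without pair 1), and 2 had p below 0.05, where 0.549% of all features were higher at that p. BIRC3, an inhibitor of apoptosis, was higher in all 5 pairs by 0.63 (SE 0.24, adjusted p = 1) and RELB, an NF-kB subunit, in 4 of 5 by 0.63 (SE 0.26, adjusted p = 1). CXCL8, the neutrophil chemokine interleukin 8, was well above background on none of the 10 arrays. HMOX1, heme oxygenase 1, was at 4.93 to 6.01 in CTL and 5.90 to 6.39 in DBN and was higher in all 5 pairs (0.63, SE 0.23, adjusted p = 1), while the other 14 NRF2 targets tested, such as the transporter ABCC3 (0.36, SE 0.25), had p above 0.05. Of 18 hypoxia-responsive genes tested 13 were higher and 5 lower, and 1 had p below 0.05. The list median was 0.07, and 0.29 without pair 1. The 2 genes with the smallest p, ANKRD37 (1.00, SE 0.37, adjusted p = 1) and ANGPTL4 (0.66, SE 0.34), were both highest in DBN replicate 4, at 3.59 and 7.37. In the TGF-beta list TGFB2, a ligand, was lower in all 5 pairs by 1.00 (SE 0.26, adjusted p = 0.723) and ID3, an inhibitor of differentiation, by 0.62 (SE 0.24, adjusted p = 1), while the list median was -0.12 over 21 genes and 0.03 without pair 1. The interferon-stimulated genes had a median of 0.02 over 21 genes, with IFIT1 at -0.66 (SE 0.27) and OAS2 at 0.29 (SE 0.23). Chaperones had a median of -0.05 over 20 genes, with PDIA4 at -0.71 (SE 0.43) and CANX at -0.39 (SE 0.29), and PDIA4 was low on DBN replicate 2 at 1.86.

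Integrated stress response genes, which ATF4 switches on when translation is slowed, included some that were high in the same replicate numbers of both groups. NUPR1, a stress-induced chromatin protein, stood at 5.64, 5.62, 2.12, 2.14 and 2.03 in CTL and at 5.36, 6.90, 1.95, 2.41 and 2.44 in DBN. CHAC1, a glutathione-degrading enzyme, was likewise highest in replicates 1 and 2 of both groups, at 6.40 and 7.56 in CTL and 4.55 and 7.27 in DBN, against 2.94 to 3.89 elsewhere. DDIT3, the factor CHOP, and GDF15 were high in replicate 2 of both groups (6.81 and 6.28 for DDIT3, 7.42 and 8.64 for GDF15). Differences between DBN and CTL were 0.30 for NUPR1 (SE 0.27), -0.11 for CHAC1 (SE 0.35) and -0.24 for DDIT3 (SE 0.28). The list had a median difference of 0.03 over 37 genes, none of them at p below 0.05, and of 0.28 without pair 1. Its median level was 7.04, 7.06, 5.79, 5.65 and 5.57 on the CTL arrays and 6.16, 7.65, 5.67, 5.79 and 6.13 on the DBN arrays. Over the whole list DBN replicate 1 was thus level with DBN replicate 5.

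**Figure D4:**
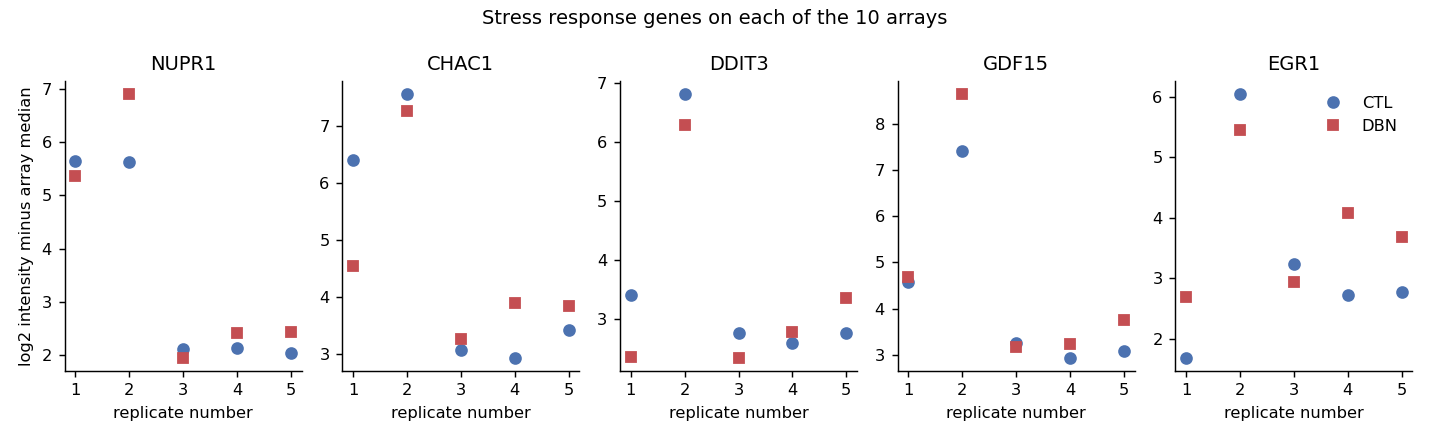
Log2 intensity minus the array median for 5 stress response genes on each of the 10 arrays, by replicate number, with CTL as circles and DBN as squares. NUPR1 is at 5.36 to 6.90 on the 4 arrays of replicates 1 and 2 and at 1.95 to 2.44 on the 6 others, in both groups alike.

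The same features were then read in the other irradiated and bystander groups. Between DBN and DBP, the other directly irradiated group, 0 features were called (0%), with 59 at an unadjusted p below 0.05 (limma, no replicate block). With the replicate block 554 features were below that p and 0 were called. The lack of calls does not show that the groups are alike. The 48 mitotic genes had a median of -0.11 in DBN minus DBP, beside -0.10 over all features. Relative to CTL, whose arrays both comparisons share, PIF1 was lower by 1.36 in DBP and 2.06 in DBN, and the test of DBN against DBP gave -0.71 (SE 0.33, adjusted p = 1). CCNF differed from CTL by -1.97 in DBP and AURKA by -1.18.

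Against BN, the unhit cells of the same dishes, 0 features were called (0%), with 411 at p below 0.05 (limma). PIF1 differed by -1.88 (SE 0.23, adjusted p = 0.126). A_33_P3404221 differed by -1.51 (adjusted p = 0.327). Of the 48 mitotic genes 47 were lower than in BN, as were 7407 of the 12206 features. At p below 0.05, 28 of the 48 were lower, where 2.61% of all features were lower at that p. The median of the 48 was -0.66, beside -0.06 over all features. With all H1299 groups in one fit 26 features fell against BN (0.213%), 12 of them among the 48. The comparisons with BN and with CTL share the 5 DBN arrays. BORA differed from BN by -1.33 (SE 0.29, adjusted p = 1) and FAM83D by -1.15 (SE 0.26, adjusted p = 1). In BN minus CTL the same genes were at -0.04 and -0.12, PIF1 at -0.19 and the median of the 48 genes at -0.12. For genes higher in DBN, BN minus CTL was 0.46 for HMOX1, 0.33 for CDKN1A, 0.65 for EGR1 and 0.66 for GDF15. It was 0.37 for FOSB, 0.36 for BIRC3, 0.33 for NR4A1 and 0.13 for RELB. ID3 and TGFB2, lower in DBN, were at -0.46 and -0.50. These differences share the CTL arrays with those of DBN.

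In H1299shRAD9, DBN minus CTL was -1.34 for PIF1, -1.42 for A_33_P3404221, -1.13 for BORA, -1.10 for FAM83D and -1.22 for CCNF. The difference between the cell lines was tested as an interaction, and no feature was called (0%), with 1110 at p below 0.05 (limma). It was 0.72 for PIF1 (SE 0.26, adjusted p = 0.328), the fall being larger in H1299, 0.81 for DEPDC1 (SE 0.27, adjusted p = 0.255), which differed by -1.08 in H1299 and -0.27 in H1299shRAD9, and 0.23 for BORA (SE 0.28, adjusted p = 0.976). Of the 48 mitotic genes 46 had a positive interaction, which is a smaller fall in H1299shRAD9, and 7590 of the 12206 features had a positive interaction too. The median of the 48 was 0.29, beside 0.09 over all features. At p below 0.05 there were 7 of them, where 7.43% of all features were higher at that p. The interaction was sensitive to pair 1 of both lines, and without replicate 1 it called 192 features.

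**Figure D5:**
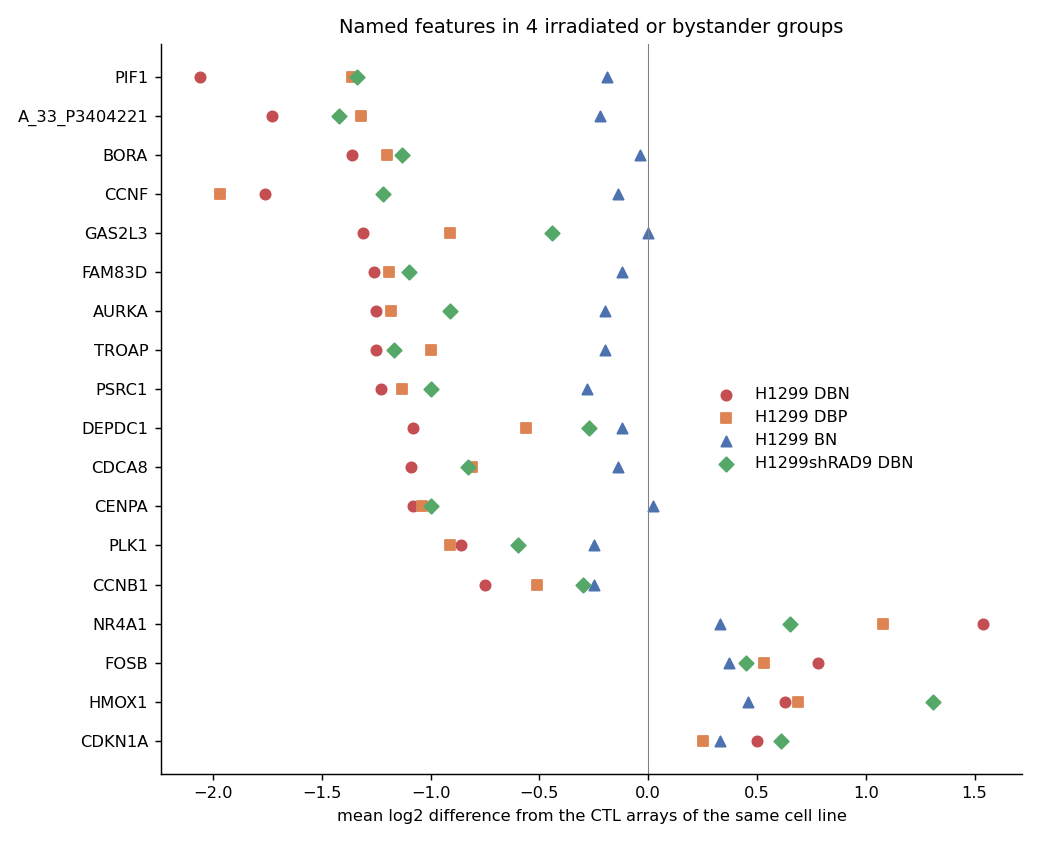
Mean log2 difference from the CTL arrays of the same cell line for 18 features in H1299 DBN, DBP and BN and in H1299shRAD9 DBN, 5 arrays per group; the 3 H1299 groups share their CTL arrays. For the mitotic genes the H1299 DBN points lie at -0.75 to -1.76 and the BN points at -0.28 to 0.02, with PIF1 at -2.06 and -0.19.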

How the data were processed

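RNA of H1299 and H1299shRAD9 cells was hybridised to 50 one-color Agilent arrays. Per the file headers, Feature Extraction 11.5.1.1 subtracted a fitted background and wrote processed intensity values and flags per spot. The deposited series table holds the authors' log2, median normalized values of 9502 features and served as an alternative. Its scale differed from the scanner values by a shift per array.

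Processed intensities were put on the log2 scale, spots marked as non-uniform or outliers were left out, spots of a probe were averaged, and the array median was subtracted. Features that were flagged, or failed the well-above-background call, on at least 25% of the 50 arrays were removed (20100 left), as were those that differed 1.3-fold from their median in under 20% of arrays (12206 left). Genes were assigned through RefSeq accession (25962 probes) or symbol (2078, and 464 by older symbol), and 5623 had none.

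DBN and CTL were compared with limma 3.58.1 in R 4.3.3, with the replicate number as a block because the study matched samples. BN used the same block, DBP none, and the cell lines an interaction. Features were called at p below 0.006 and FDR below 10%. A list gene is given by its probe with the highest mean signal. Named genes are all called features, the 8 largest rises and falls with p below 0.006 in all 5 pairs (well above background on at least 4 of 5 arrays of each group), 15 fixed genes (1 is not reported here), and 2 genes per list with the smallest p. The members and lists were chosen with earlier results of these data known. The study describes the samples as independent and as biological replicates. The H1299 samples are all of one line, so p measures the spread between these samples. The code was tested on simulated data. Alternatives covered scaling, normalization, background, filters, the test, slide, pairing and each replicate left out.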

Additional observations from a re-analysis of the deposited data

Results flagged for a closer look

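An array far from the other 4 of its group was looked for with the Dixon ratio in 114 groups of 5 values, where chance gives about 1 in 20, and 13 were found. Replicate 2 held 8 of them and replicate 1 held 4. In DBN replicate 2, GDF15 was at 8.64 (others 3.18 to 4.68), DDIT3 at 6.28 (others 2.34 to 3.36) and DCN at -0.43 (others -1.65 to -1.37). This array had 201 saturated probes, against 3 to 60 on the others, and a 5′ to 3′ index of -1.99 on the log2 scale (others -1.62 to -1.52). The index compares, in each of 2338 genes, the probe nearest the 5′ end with the one nearest the 3′ end, and takes the median.

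In CTL replicate 2, DDIT3 was at 6.81 (others 2.58 to 3.41), BORA at 4.19 (others 3.76 to 3.85) and FAM83D at 5.47 (others 5.89 to 6.06). In DBN replicate 1, AURKA was at 5.03 (others 6.01 to 6.24), CDCA8 at 5.90 (others 6.69 to 6.93) and BAK1 at 3.98 (others 5.17 to 5.57). KRT8 was at 7.26 in CTL replicate 1 (others 6.65 to 6.77) and ANKRD37 at 1.40 in CTL replicate 3 (others 0.56 to 0.74).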

How the results depend on the processing

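DBN against CTL gave 2 calls. It gave 0 with 75th percentile scaling, quantile normalization, the positive-and-significant background filter, the authors' values and slide as a fixed block (an alternative chosen after seeing the data), 1 with normexp, 34 with slide as a random block and 70 with all groups in one fit. Leaving out a replicate gave 0 (without replicate 3) to 5 (without replicate 2). Without the replicate block it gave 2, and same-numbered arrays correlated at -0.011, 0.207, -0.082, 0.562 and 0.45, so that pairing by number was not settled. Of the 5 CTL arrays, 1 correlated best with the DBN array of its own number. At an unadjusted p below 0.05, 2.9% of the features were lower and 0.549% higher. With 75th percentile scaling these shares were 1.54% and 1.45%. With the positive-and-significant background filter they were 1.75% and 1.66%, and with quantile normalization 2.88% and 0.829%. That balance thus moved with the processing, and the cause was not tested. The mitotic median lay 0.61 to 0.79 below that of all features in every setting run, with the sizes -0.58 to -0.92. The setting without the 1.3-fold criterion still read 48 mitotic genes, so it does not test the choice of these genes by their variation. The 2 called features kept their direction everywhere, and no called value reversed. The sign of CHAC1, BAK1, DDIT3, DCN and KRT8, none of them called, was not kept in every setting, nor was that of list medians near 0 and of the S phase list. DBN against DBP gave 0 calls in every setting, also with the replicate block. DBN against BN gave 0, and 1 without the 1.3-fold criterion, 2 with the authors' values, 2 with slide as a random block, 26 in one fit, and 0 to 2 without 1 replicate; without the replicate block it gave 0. The cell line difference gave 0, and 5 with normexp and 3 without the 1.3-fold criterion. It gave 245 with all groups of both cell lines in one fit. Without 1 replicate it gave 0 to 192, the 192 without replicate 1. Without the replicate block it gave 0. The cause of these changes was not tested. The array share well above background differed by -1.38 to 5.00 points without 1 replicate. The 5 pairs limit the precision of each value to a median SE of 0.27.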
